A study of Mus musculus with 5 samples.

Results

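Autophagy is the route by which a cell wraps part of its own cytoplasm in a double membrane, the autophagosome, and delivers it to lysosomes for breakdown. The ULK kinase complex starts the process, a class III phosphatidylinositol 3-kinase marks the growing membrane, and 2 linked conjugation systems attach small ubiquitin-like proteins of the Atg8 family to it. Cargo receptors bind those proteins on the inner face of the membrane, and the kinase complex mTORC1, which senses amino acids on the lysosome surface, holds the ULK complex in check when nutrients are plentiful. In the mammary gland autophagy is known mainly from epithelial cells, which die and are cleared after weaning. The values here come from fibroblasts of the same glands.

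The genes described are 37 rows of the deposited table, of 45706 in all, chosen by gene symbol as core autophagy, cargo receptor and mTORC1 nutrient-sensing genes. The rule uses gene symbols alone, but the members were chosen with earlier results of these data known. The RNA came from cells of Balb/c mouse glands 4 and 5 that were sorted by fluorescence for PDGFRa, a surface receptor of fibroblasts. There were 2 libraries of nulliparous mice and 3 of mice at 6 days post weaning, which is called involution day 6 below. They are biological replicates by the series' description, and no source used here says whether animals were pooled. No genetic change or drug treatment is named for either group. Pregnancy and lactation separate the groups too, so their effects and that of involution cannot be told apart. All values are log2 of a scaled count plus an offset of about 11.8, so a gene without reads stands at 3.57. In sorted bulk RNA, fewer cells of a type and less RNA per cell cannot be told apart.

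The unlogged totals without the offset ran from 37564400 to 43002000 per library. Pdgfra, the gene of the sorting marker, stood at 15.87 and 15.93 in nulliparous and at 16.09, 15.88 and 15.69 in involution libraries. Of 12 macrophage markers, 2 passed the threshold, namely Adgre1, higher by 1.64, and the most abundant, Lyz2, higher by 2.12. All 12 differences were above 0, with a median of 1.21. The summed scaled counts of the 12 took 0.00742% to 0.0158% of a nulliparous and 0.0149% to 0.0399% of an involution library. None of the 12 was near the offset in all libraries. The luminal epithelial list, of 10 genes, took 0.0290% to 0.0915% and 0.0181% to 0.103%, with 8 of the 10 differences below 0 and a median of -1.30. The exceptions were the milk protein genes Csn2, the most abundant of the list, and Wap, the only one past the threshold. Wap stood at 3.52 and 4.08 in nulliparous libraries, near a row without reads, and at 9.57, 8.14 and 7.18 in involution libraries. Csn2 stood at 12.66 and 7.72 in nulliparous and at 14.90, 13.27 and 12.22 in involution libraries, so its groups overlapped. Fibroblast markers took 10.4% to 11.2% and 10.9% to 13.6%, led by Col3a1, with Pdpn the only one of 10 past the threshold. No gene passed among 5 basal epithelial markers (most abundant Krt14, smallest p in Trp63), 6 endothelial (Tek and Vwf), 6 pericyte and smooth muscle (Notch3 for both), 6 lymphocyte (Cd3e for both), 1 testable of 5 adipocyte (Fabp4), 10 dissociation response (Egr1 and Hspa1b) or 5 testable of 8 mitochondrially encoded genes (mt-Co1 and mt-Nd4). All differences were below 0 in the basal (median -1.28), endothelial (-0.25) and pericyte and smooth muscle lists (-0.51), and that of Fabp4 was -0.60. All 5 mitochondrially encoded genes were above 0, with a median of 0.31. The lymphocyte list had 3 above and 3 below 0, and the dissociation list 6 and 4. Of the 10 dissociation response genes, 8 were lowest in nulliparous replicate 1, Hspa1b stood at 14.70 and 16.93 in the nulliparous pair, and the list took 1.22% to 2.51% of a nulliparous and 1.46% to 1.97% of an involution library. The part of other cells, or of that response, in the differences below was not tested.

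Of the 37 genes, 8 were higher at involution day 6, 1 was lower and 28 did not pass in limma's moderated test, adjusted over all 15912 genes tested at a threshold of 0.05. Those that rose were Gabarapl1, Gabarap and Map1lc3b of the Atg8 family, the conjugation enzyme gene Atg7, the cargo receptor gene Optn, the phosphoinositide-binding gene Wipi1, and Rragc and Lamtor1 of the lysosomal platform of mTORC1. The gene that fell was Mtor, the kinase subunit of mTORC1. The rises ran from 1.33-fold to 1.92-fold, and all 9 genes had groups that did not overlap. The share called was 24.3% of the 37, against a background of 11.3% of all genes tested, and 13.5% of the 10221 genes whose mean was at least that of Atg10, the lowest of the 37 on this scale. Upward the share was 21.6%, against 6.65% of all genes and 8.22% of those 10221, and downward 2.70%, against 4.66% and 5.28%. With libraries scaled to the same total, all genes split into 803 higher and 1731 lower, beside 1058 and 742 here, and the 37 into 6 and 2. All 37 genes passed the filter on low values. Their median difference was 0.19, beside -0.03 over all genes tested, and 27 of the 37 differences (73.0%) were above 0, beside 46.2% of all genes. The groups did not overlap for 26 genes, 19 upward and 7 downward, which is 70.3% beside 47% of all genes (21.9% upward and 25.1% downward).

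The count of rises depended on single libraries. It was 5 without involution replicate 1, 4 without involution replicate 2 and 8 without involution replicate 3, while the count of falls was 0 in each of these fits. Over all 15912 genes the rises in the same fits were 710, 447 and 786, beside 1058 with every library. The fewest rises, among the 37 and over all genes, came without nulliparous replicate 1, which leaves 1 library in that group. Of the 37 genes, 27 stood higher in nulliparous replicate 2 than in replicate 1, among them 7 of the 9 called. The matching share of all genes is not given here, so this count is not read as a trait of the 37. The median of all genes tested was 9.17 in nulliparous replicate 1 and 9.14 in replicate 2. With only the rows without reads left out, which gave 28311 genes and a background of 1.97%, the 37 held 3 rises and 0 falls.

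**Figure D1:**
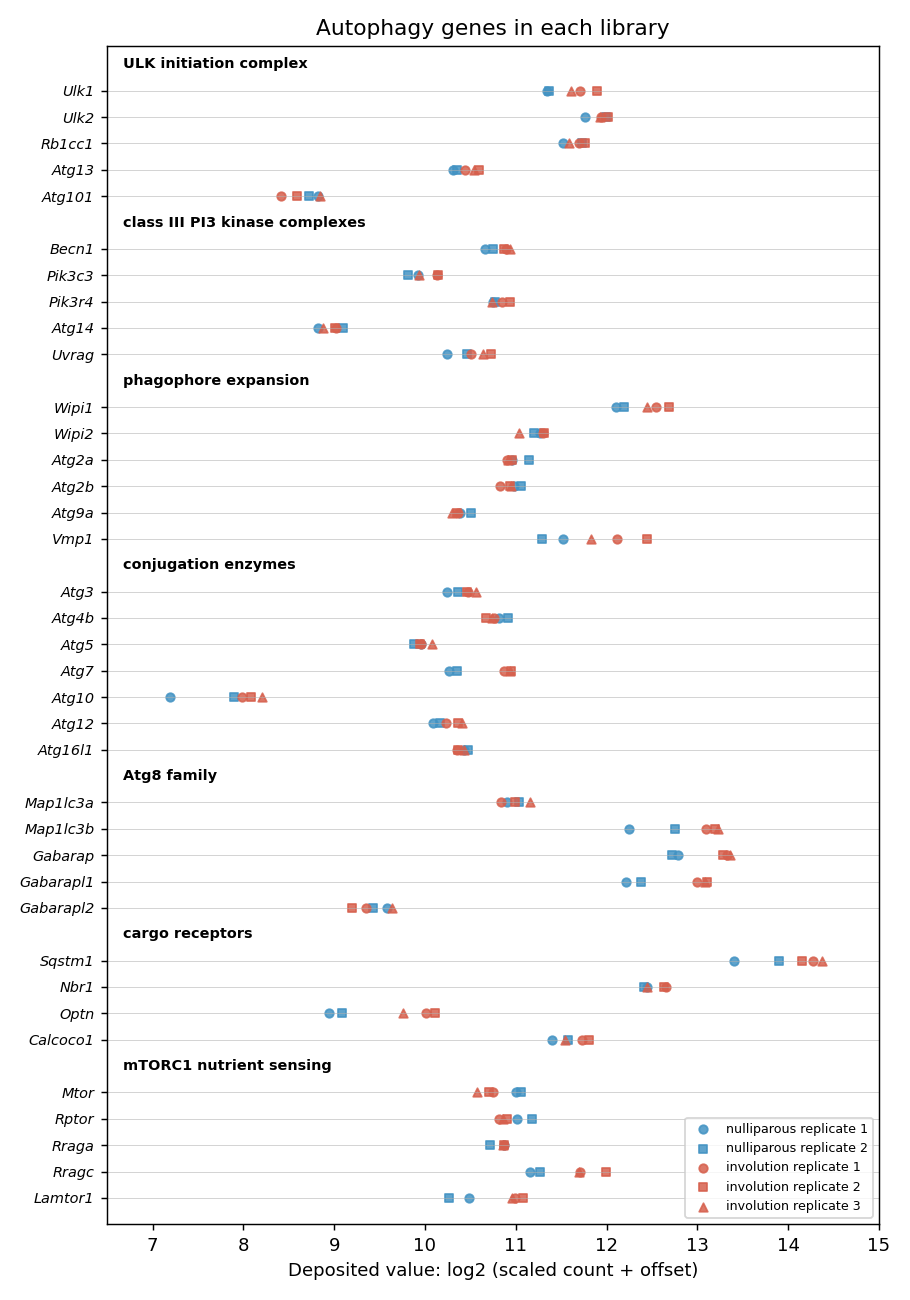
Deposited log2 values of the 37 autophagy genes in each of the 5 libraries, 1 row per gene, grouped by role. Blue symbols are the 2 nulliparous and red symbols the 3 involution libraries, and Gabarapl1, Gabarap, Map1lc3b, Atg7 and Optn show all red symbols to the right of both blue ones.

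The promoter windows of Lamtor1 and Rragc, which rose, hold the letters CACGTG, the E-box core bound by basic helix-loop-helix factors, among them the MiT family known to activate lysosomal and autophagy genes. They are shown because they let a reader see that motif in context. Each is the 250 bases before the start site in RefSeq on GRCm38.p6, plus strand, 5′ to 3′, with CACGTG in capitals. The windows lie at chr7:101905587-101905836 for Lamtor1 and chr4:123917183-123917432 for Rragc.
Lamtor1: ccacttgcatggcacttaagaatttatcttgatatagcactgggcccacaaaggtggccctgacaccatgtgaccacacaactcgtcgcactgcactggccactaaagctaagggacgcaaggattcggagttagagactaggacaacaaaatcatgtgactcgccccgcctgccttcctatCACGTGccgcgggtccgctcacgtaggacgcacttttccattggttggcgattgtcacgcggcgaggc
Rragc: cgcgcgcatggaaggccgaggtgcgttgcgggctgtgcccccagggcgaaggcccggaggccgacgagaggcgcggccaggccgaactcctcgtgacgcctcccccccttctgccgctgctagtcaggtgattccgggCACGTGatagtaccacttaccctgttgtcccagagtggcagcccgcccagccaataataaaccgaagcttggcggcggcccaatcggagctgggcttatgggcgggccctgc
The motif begins 68 bases before the start site in Lamtor1 and 112 in Rragc. In windows of 300 bases, 250 before and 50 after the start, it stood in 6 of 34 windows that matched 31 of the 37 genes by symbol (17.6%), beside 7.15% of 32851 windows of all genes. One of the 6 belongs to Atg7, where the RefSeq start site lies within the gene, 9066 bases from the nearest GENCODE M21 transcript start, so that sequence is not shown. In the other 33 windows, each within 500 bases of such a start, the motif stood in 5 (15.2%). The 7.15% covers windows of all genes, without that limit and whether or not a gene passed the filter on low values. The other 3 genes with it, Atg3, Atg5 and Atg14, did not pass the test. The windows of Gabarap, Gabarapl1, Map1lc3b, Optn and Wipi1, which also rose, do not hold the motif. Neither does that of Mtor, which fell. CACGTG reads the same on both strands, and it lies within the longer form TCACGTGA, which stood in 1 of the 34 windows, that of Atg3, and in 0.974% of all. The antioxidant response core TGACNNNGC, searched on both strands, stood in 6 of the 34 windows (17.6%) and in 12.4% of all. These 6 belong to 4 of the 31 matched genes, Atg13, Map1lc3b, Ulk2 and Vmp1, as Vmp1 has more than 1 of them. The forkhead letters GTAAACA, also on both strands, stood in 0 of the 34 and 3.65% of all. A match describes the letters in the window, and binding was not measured.

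The Atg8 family held 3 of the 8 rises. These proteins are joined to a lipid of the autophagosome membrane, where they help it grow and hold cargo receptors, and the family divides into LC3 and GABARAP branches. Gabarapl1, on chromosome 6 from 129533160 to 129542346, was at 12.21 and 12.38 in nulliparous and at 13.00, 13.11 and 13.09 in involution libraries. All 3 involution libraries lay above both nulliparous ones by a gap wider than the spread within either group. The difference was 0.77 ± 0.09 (log2 difference ± SE, n = 2 and 3, as for all later differences), a 1.71-fold rise with adjusted p = 0.00579 in limma. It was the only one of the 9 called genes that passed in each of the 14 alternative fits, with adjusted p from 0.00191 to 0.0407. Exons of 1700101I11Rik on the opposite strand, at a mean of 4.36, overlap 28.3% of its exonic bases. Gabarap, on chromosome 11 from 69991143 to 69994951, was at 12.79 and 12.72 against 13.33, 13.28 and 13.36. Its 3 involution values were within 0.08 of each other and all above the nulliparous pair. It rose by 0.56 ± 0.08, 1.48-fold, with adjusted p = 0.00926 in limma, and 0.0508 and 0.0556 without nulliparous replicate 1 or 2 (from 0.00690 to 0.0556 over the alternatives).

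Map1lc3b, which encodes LC3B, the protein most used as a marker of autophagosomes, lies on chromosome 8 from 121590361 to 121598760. It was at 12.24 and 12.76 in nulliparous and at 13.09, 13.20 and 13.23 in involution libraries. The nulliparous libraries differed from each other more than the involution libraries did, and the groups still did not overlap. It rose by 0.67 ± 0.15, 1.59-fold, with adjusted p = 0.0434 in limma. The call held in 6 of 14 alternative fits and, of the fits without 1 library, only without nulliparous replicate 2, with adjusted p from 0.0115 to 0.133 over the alternatives.

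The other two members of the family did not pass. Map1lc3a, the LC3A gene (chromosome 2, 155276297 to 155278073), was at 10.90 and 11.04 against 10.83, 11.00 and 11.16. Its groups overlapped, and the difference of 0.03 ± 0.12 had a 95% interval from -0.25 to 0.31 (adjusted p = 0.905 in limma). Gabarapl2, on chromosome 8 from 111940703 to 111953612, was at 9.58 and 9.43 against 9.35, 9.20 and 9.64. The involution libraries held both its lowest and its highest value, and the difference was -0.11 ± 0.15, with an interval from -0.48 to 0.26 (adjusted p = 0.689 in limma). Gabarapl2 has 6 annotated processed pseudogenes with at least 90% identity over 200 bases or more, the closest at 99.4%, so reads may have been lost to them and its value is uncertain. The 5 of these with a row in the table had group means between 3.56 and 3.78, close to a gene without reads.

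Differences between paralogs were compared as log2 ratios within each library, in 4 pairs chosen after the values were seen. Map1lc3b over Map1lc3a went from 1.53 ± 0.26 (SD, n = 2) to 2.17 ± 0.10 (SD, n = 3). Gabarap over Gabarapl2 went from 3.25 ± 0.06 to 3.92 ± 0.18, and Gabarapl1 over Gabarapl2 from 2.79 ± 0.22 to 3.67 ± 0.23. Rragc over Rraga went from 0.42 ± 0.18 to 0.93 ± 0.17. The groups did not overlap in any of the 4 pairs, and the exact permutation test over samples, two-sided, gave p = 0.2 for each, which is the smallest p that 2 against 3 libraries allow and stays 0.2 after adjustment over the 4.

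Levels were compared between genes per kilobase of the longest APPRIS principal transcript in GENCODE M21, with the offset removed. Within the family, Gabarap stood highest at 5116 ± 164 scaled counts per kilobase in nulliparous (SD, n = 2) and 7568 ± 214 in involution libraries (SD, n = 3). Gabarapl1 followed at 2758 ± 226 and 4707 ± 192. Map1lc3b was at 2319 ± 577 and 3643 ± 181, Map1lc3a at 1797 ± 123 and 1835 ± 209, and Gabarapl2 at 427 ± 31.7 and 398 ± 63.5. In nulliparous libraries the spread of Map1lc3b reached both of its neighbours in that order, and in involution libraries the 5 genes were apart by more than their spread. Map1lc3a made up 14.4% and 14.6% of the family's summed level in nulliparous and 9.31%, 10.1% and 10.9% in involution libraries. With the union of all annotated exons as the length, chosen after seeing the data, Map1lc3b stood at 781 and Map1lc3a at 1692 in nulliparous libraries, so their order depends on the length used.

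**Figure D2:**
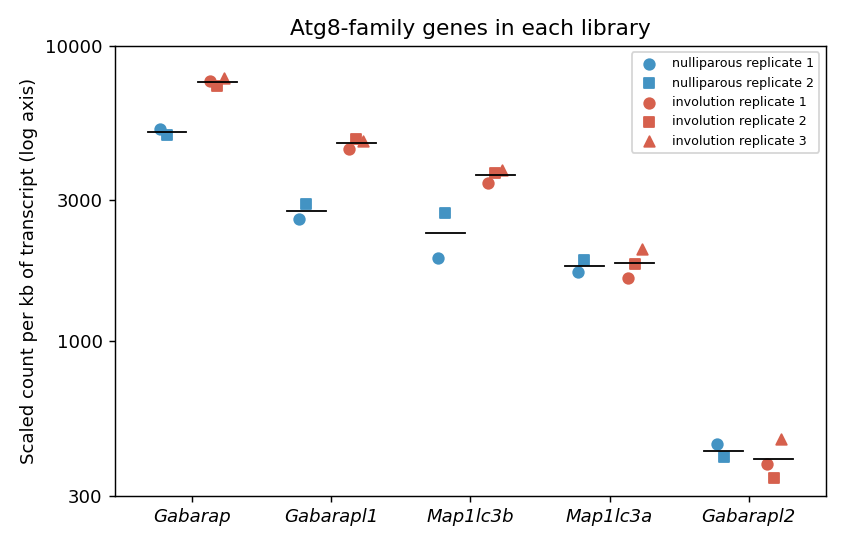
Scaled counts per kilobase of the longest principal transcript for the 5 Atg8-family genes in each library, on a log axis, with a black line at the mean of each group. Gabarap, Gabarapl1 and Map1lc3b are higher in all 3 involution libraries than in both nulliparous ones, while Map1lc3a and Gabarapl2 overlap.

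Among the 7 genes of the conjugation machinery, which prepares Atg8 proteins and joins them to lipid, 1 rose and 6 did not pass. Atg7 encodes the E1-like enzyme that activates both Atg12 and the Atg8 proteins, and lies on chromosome 6 from 114643097 to 114860614. It was at 10.27 and 10.35 in nulliparous and at 10.87, 10.95 and 10.94 in involution libraries. Both groups were tight, and the gap between them was several times their spread. It rose by 0.61 ± 0.08, 1.53-fold, with adjusted p = 0.00818 in limma, and passed in 13 of 14 alternative fits, the exception being that without nulliparous replicate 1 (0.0563, with a range from 0.00491 to 0.0563). Atg10, an E2-like enzyme gene, was higher by a similar 0.55 ± 0.23, but its nulliparous libraries stood apart at 7.19 and 7.89 and it did not pass (adjusted p = 0.185 in limma). The E2-like Atg3 differed by 0.20, Atg12, the ubiquitin-like partner of Atg5, by 0.21, and Atg5 itself by 0.08. Atg16l1, which places the conjugating complex on the membrane, differed by -0.07, and Atg4b, a protease that trims Atg8 proteins, by -0.14.

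Of 4 cargo receptor genes, 1 rose and 3 did not pass. Optn, on chromosome 2 from 5020642 to 5064051, encodes optineurin, a receptor for ubiquitin-marked mitochondria and bacteria. It was at 8.95 and 9.09 in nulliparous and at 10.01, 10.11 and 9.75 in involution libraries. Every involution library was above both nulliparous ones by at least 0.66. The rise of 0.94 ± 0.14, 1.92-fold, was the largest of the 37 genes, with adjusted p = 0.0112 in limma. It passed in 12 of 14 alternative fits and missed without nulliparous replicate 1 (0.0705) and with only the rows without reads left out (0.0552), the lowest adjusted p being 0.00147.

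Sqstm1, on chromosome 11 from 50199366 to 50210827, encodes p62, a receptor that collects ubiquitin-marked proteins and is itself degraded with them. It was at 13.40 and 13.90 in nulliparous and at 14.27, 14.16 and 14.37 in involution libraries. The groups did not overlap, but the nulliparous libraries were 0.50 apart. The difference of 0.61 ± 0.16 did not pass (adjusted p = 0.0631 in limma, from 0.0359 to 0.208 over the alternatives, with the lowest without nulliparous replicate 2). Per kilobase it was the most abundant of the 37 genes, at 6413 ± 1565 (SD, n = 2) and 9680 ± 707 (SD, n = 3) scaled counts. Of its exonic bases, 17.3% overlap Mrnip on the opposite strand, which stood at a mean of 5.81, and the library kit does not mark strand. Nbr1, a receptor related in structure to p62, differed by 0.15 and Calcoco1, a receptor for parts of the endoplasmic reticulum and Golgi, by 0.21.

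Of 6 genes of phagophore expansion, 1 rose and 5 did not pass. Wipi1, on chromosome 11 from 109573331 to 109611967, encodes a protein that reads the lipid made by the class III kinase. It was at 12.10 and 12.19 in nulliparous and at 12.54, 12.69 and 12.44 in involution libraries. The groups were apart by about the width of the involution spread. It rose by 0.41 ± 0.10, 1.33-fold, with adjusted p = 0.0457 in limma, in 6 of 14 alternative fits and, of the fits without 1 library, only without involution replicate 3 (from 0.0100 to 0.182). Its paralog Wipi2, which recruits Atg16l1, differed by -0.02. Vmp1, a lipid scramblase gene of the endoplasmic reticulum, was at 11.52 and 11.29 against 12.11, 12.44 and 11.83. Its groups did not overlap, yet the involution libraries spread widely and the difference of 0.72 ± 0.18 did not pass (adjusted p = 0.0565 in limma, 0.0315 without involution replicate 3, and from 0.00697 to 0.221 over the alternatives). Vmp1 has 1 pseudogene copy of 91.2% identity. The lipid transfer genes Atg2a and Atg2b and Atg9a, whose product brings the first membrane, differed by -0.13, -0.12 and -0.11, each with all 3 involution libraries below both nulliparous ones and none past the threshold.

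No gene of the initiation and nucleation complexes passed, with 0 of 5 in the ULK complex and 0 of 5 in the class III kinase complexes, and 3 of these 10 had an unadjusted p under 0.05, beside 28.9% of all genes tested. Ulk1, on chromosome 5 from 110784488 to 110810097, encodes the kinase that starts autophagy. It was at 11.34 and 11.37 in nulliparous and at 11.71, 11.89 and 11.61 in involution libraries. The involution libraries were all higher and spread more than the nulliparous ones. The difference of 0.38 ± 0.10 had adjusted p = 0.0609 in limma (from 0.0144 to 0.202 over the alternatives). Its paralog Ulk2 differed by 0.08, and the partners Rb1cc1, a scaffold with 1 pseudogene copy of 94.8% identity, Atg13 and Atg101 by 0.06, 0.20 and -0.16.

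Becn1, on chromosome 11 from 101285952 to 101302286, encodes Beclin 1, the regulatory subunit of the class III kinase complexes. It was at 10.67 and 10.75 against 10.90, 10.87 and 10.93. The groups were apart by about 0.1, and the difference of 0.19 ± 0.08, a ratio of 1.14, had a 95% interval from 0.00 to 0.38 and did not pass (adjusted p = 0.166 in limma). Exons of Cntd1, which runs on the opposite strand and stood at a mean of 4.39, overlap 43.9% of its annotated exonic bases. The catalytic subunit Pik3c3 differed by 0.20, the scaffold Pik3r4 by 0.08, and the subunits that direct the complex to autophagosomes or endosomes, Atg14 and Uvrag, by 0.01 and 0.27. Uvrag has 1 pseudogene copy of 90.5% identity.

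Among 5 genes of mTORC1 and its lysosomal platform, 2 rose, 1 fell and 2 did not pass. Rragc, on chromosome 4 from 123917446 to 123936997, encodes a Rag GTPase, which recruits mTORC1 to lysosomes when amino acids are present. It was at 11.16 and 11.26 in nulliparous and at 11.71, 11.99 and 11.69 in involution libraries. The groups did not overlap, with involution replicate 2 the highest. It rose by 0.59 ± 0.11, 1.50-fold, with adjusted p = 0.0262 in limma, in 8 of 14 alternative fits (from 0.00424 to 0.127). Of the fits without 1 library it passed only without involution replicate 3.

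Lamtor1, on chromosome 7 from 101905904 to 101926675, encodes the lipid-anchored subunit that holds the Ragulator complex, and with it the Rag GTPases, on the lysosome. It was at 10.48 and 10.26 against 10.99, 11.08 and 10.96. The involution libraries were close together and all above the nulliparous pair. It rose by 0.64 ± 0.10, 1.56-fold, with adjusted p = 0.0136 in limma, and missed without nulliparous replicate 2 (0.0639) or involution replicate 2 (0.0560) and with only the rows without reads left out (0.0545), the lowest being 0.00701. Exons of Lrrc51 on the opposite strand, at a mean of 7.11, overlap 18.7% of its exonic bases, and it has 2 pseudogene copies, the closer at 98.4% identity.

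Mtor, on chromosome 4 from 148448611 to 148557683, was at 11.01 and 11.06 in nulliparous and at 10.74, 10.70 and 10.58 in involution libraries. It was lower in all 3 involution libraries. It fell by 0.36 ± 0.09, a ratio of 0.779, with adjusted p = 0.0481 in limma. This call held in 6 of 14 alternative fits and in none of the 5 fits without 1 library (from 0.0132 to 0.179 over the alternatives). Rptor, which encodes raptor, the subunit that binds mTORC1 substrates, was at 11.01 and 11.18 against 10.81, 10.91 and 10.86 and did not pass, with a difference of -0.24 ± 0.09 (adjusted p = 0.138 in limma, and 0.0364 with libraries scaled to the same total, up to 0.433). Rraga, the Rag GTPase gene whose product pairs with that of Rragc, differed by 0.07.

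**Figure D3:**
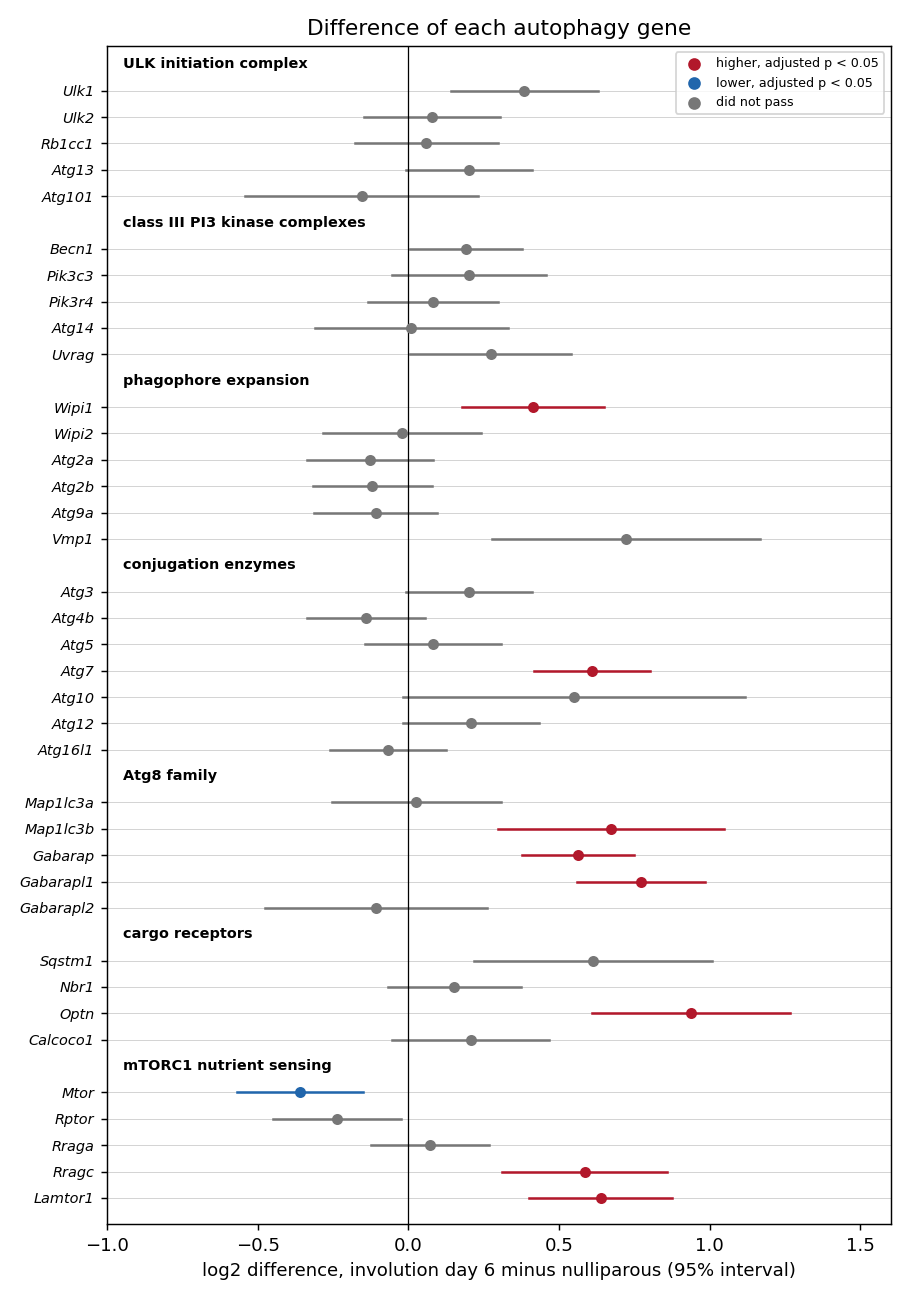
log2 difference of each of the 37 genes, involution day 6 minus nulliparous, with its 95% interval from the moderated variance of limma. The 8 genes in red rose and Mtor, in blue, fell, while the 28 genes in grey did not pass.

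Other genes of the pathway, in 5 lists of 113 genes of which 108 could be tested, held 14 rises and 2 falls, with a median difference of 0.06. The share called was 14.8%, beside 11.3% of all genes tested and 13.5% of the 10221 genes at least as high as Atg10. Over all genes tested 6.65% rose and 4.66% fell, and the counts of each list below stand beside these shares. Of 37 further mTORC1 and nutrient-sensing genes, 6 rose and 2 fell. Rragd encodes a Rag GTPase that can take the place of the Rragc product. It was at 6.84 and 7.71 in nulliparous and at 9.77, 10.29 and 9.52 in involution libraries. The nulliparous libraries were 0.87 apart, and the involution libraries were all higher by more than that. It rose by 2.58 ± 0.32, 5.97-fold, with adjusted p = 0.00716 in limma. Fnip2, the partner of folliculin, a GTPase-activating protein for RagC and RagD, was at 9.81 and 10.15 against 11.19, 11.77 and 11.20 and rose 2.66-fold (adjusted p = 0.0118 in limma). Eif4ebp1, which encodes a translation repressor that mTORC1 inactivates, rose 1.77-fold (adjusted p = 0.00978 in limma).

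Ddit4, which encodes REDD1, an inhibitor of mTORC1 induced by stress, was at 9.78 and 9.87 in nulliparous and at 8.89, 8.71 and 8.95 in involution libraries. It was lower in every involution library and fell by 0.97 ± 0.12 (adjusted p = 0.00671 in limma), also in each of the 14 alternative fits. Outside the naming rule and chosen after their values were seen, the folliculin gene Flcn rose 1.54-fold, and the Ragulator subunit genes Lamtor4 and Lamtor3 rose 1.50-fold and 1.33-fold.

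Of 19 other core autophagy genes tested, 3 rose. These were Sh3glb1, a membrane-bending partner of the class III kinase complex (1.34-fold, adjusted p = 0.0211 in limma), and Trp53inp1 and Trp53inp2, whose products bind Atg8 proteins (1.98-fold and 1.64-fold). Of 15 genes of fusion with lysosomes, 3 rose, the membrane fusion gene Ykt6 1.38-fold, the late endosome GTPase gene Rab7 1.24-fold and the tethering gene Plekhm1 1.47-fold. In limma their adjusted p was 0.0228, 0.0463 and 0.0465. With only the rows without reads left out it was 0.0686, 0.0747 and 0.125, so none passed. Of 18 other selective receptors, Tex264, a receptor for the endoplasmic reticulum, rose 1.42-fold. Of 19 genes of AMPK and of transcription regulators of autophagy, Ppargc1a, a coactivator of mitochondrial genes, rose from 5.02 and 5.24 to 7.07, 7.94 and 6.81, 4.43-fold (adjusted p = 0.0166 in limma). Its nulliparous values were low, so the offset weighs on this ratio, which was 5.97 with the offset removed and 1 added. The call held in 11 of 14 alternative fits, and not with only the rows without reads left out (adjusted p = 0.0844 in limma). The MiT factors Tfeb, Tfe3 and Mitf did not pass, at differences of -0.31, 0.06 and 0.58. With only the rows without reads left out, the 5 lists together held 1 rise and 1 fall, and without nulliparous replicate 1 they held 2 and 2.

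**Figure D4:**
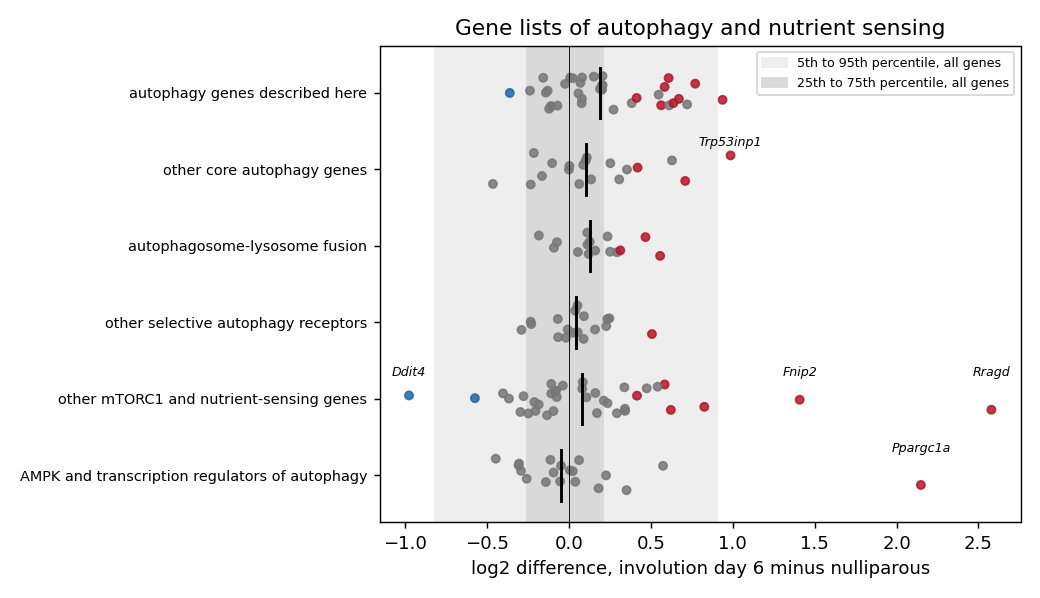
log2 differences, involution day 6 minus nulliparous, of the 37 autophagy genes and of 5 lists of other pathway genes, 1 point per gene, red where the gene rose, blue where it fell and grey where it did not pass, with vertical jitter and a black bar at each median. Grey bands give percentiles of all 15912 genes. Rragd, Ppargc1a, Fnip2, Trp53inp1 and, of the 37, Optn lie to the right of the outer band, and Ddit4 lies to its left.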

How the data were processed

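RNA of sorted PDGFRa-positive fibroblasts from 5 mouse samples was sequenced from TruSeq version 2 libraries of total RNA, per the labels' protocols. The submitters' processing notes name bcl2fastq, STAR 2.4.2a and GRCm38. Which counter, annotation, scaling and offset were used is not given in the sources used here. Values were deposited on a log2 scale in 1 table and ran from 3.44 to 21.16. In 17395 of 45706 rows every column held its own constant of about 3.57, read as a row without reads and an offset of about 11.8. Values of low rows shift slightly with the other libraries of the row, by an adjustment that is not stated. No read counts can be recovered, so sampling depth is known only roughly and no count test was run.

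Groups were compared on these log2 values with limma (version 3.58.1, R 4.3.3), two-sided, with a mean trend in the prior variance and Benjamini-Hochberg adjustment over all 15912 genes whose mean was at least 4.45, which is 10 units above the offset. The threshold was 0.05. The code was tested on simulated data. Every one of the 37 genes is named. Values in each library are given for those past the threshold and for Ulk1, Becn1, the 5 Atg8-family genes, Sqstm1 and Mtor, and for Vmp1 and Rptor, chosen after their values were seen. Of each other pathway list the up to 4 genes past the threshold with the smallest p are named, and of each marker list the most abundant and that with the smallest p. The members, lists, filter and rules were chosen with earlier results of these data known. Coordinates are 1-based, from GENCODE M21 on GRCm38. Promoters are from RefSeq on GRCm38.p6. Their start sites were compared with GENCODE M21 transcript starts, with a limit of 500 bases chosen after the data were seen. Near-identical copies were sought with BLAST among GENCODE M21 transcripts. 1 gene counted in the other pathway lists is not reported here by name.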

Additional observations from a re-analysis of the deposited data

How the results depend on the processing

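The count of called genes was 1058 higher and 742 lower over all genes, 8 and 1 among the 37 autophagy genes and 14 and 2 in the other pathway lists. Leaving out only rows without reads gave 322 and 235, 3 and 0, and 1 and 1. Without the mean trend in the prior variance the counts were 686 and 482, 5 and 0, and 5 and 1. Scaling to the same total gave 803 and 1731, 6 and 2, and 8 and 7, as it moved the median of all genes by -0.13. The median of the 37 was then 0.050, still 0.21 above that of all genes, as against 0.22 in the deposited scaling. Median scaling left 0 falls among the 37 genes. The cause of these changes was not tested. Without 1 library each, counts over all genes were 296 to 786 higher and 208 to 483 lower, among the 37 genes from 2 to 8 higher and 0 to 0 lower, and in the other lists from 2 to 10 higher and 1 to 2 lower, and the median of the 37 from 0.14 to 0.19. The fewest rises came without nulliparous replicate 1. The offset removed and 1 added, the robust prior, the stricter filter and quantile normalization kept these counts within 1.5 times.

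The replicate number as a block gave 1817 higher and 1449 lower over all genes, 11 and 1 among the 37, with Ulk1, Vmp1 and Sqstm1 added, and 20 and 3 in the other lists. The differences between replicates 1 and 2 of the 2 groups correlated at 0.44 across genes. The labels name nothing that a number marks, and with 2 shared numbers whether they pair the samples was not decided. Marker RNA of other cells also differed between the numbers. In order of replicate, Krt14 stood at 10.46 and 8.91 in nulliparous and at 9.53, 8.49 and 7.18 in involution libraries. Vwf stood at 11.67 and 9.84 against 10.93, 9.81 and 8.50, while Tek did not fall with the number. Of 10 luminal markers 8, and all 5 basal ones, were lowest in involution replicate 3. The part of such RNA in the block fit was not tested.

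Of single genes, those that turned sign were near 0. With scaling to the same total these were Ulk2 (-0.062), Rb1cc1 (-0.082), Pik3r4 (-0.059), Atg14 (-0.13), Atg5 (-0.060), Map1lc3a (-0.12) and Rraga (-0.070). Wipi2 turned to 0.0017 with median scaling and 0.069 with the replicate block, which turned Map1lc3a to -0.056. Without 1 library each, Ulk2 ran from -0.036 to 0.19, Rb1cc1 from -0.043 to 0.16, Atg14 from -0.13 to 0.15, Wipi2 from -0.071 to 0.069, Map1lc3a from -0.056 to 0.11 and Rraga from -0.0019 to 0.14.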
